A study of Homo sapiens with 6 samples.

Results

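Transcripts of 37 genes of the lysosome were compared between a CD38 knockout (CD38 KO) clone and wild-type (WT) cells of MM.1S, a cell line grown from a human multiple myeloma, which is a cancer of plasma cells. The genes were chosen by name: 31 encode lysosomal enzymes, their activators and membrane proteins, and the others encode the machinery that tags and delivers these proteins and a pair of transcription factors that switch their genes on. All 37 were found among the 60671 genes of the count table, and 36 had enough counts to be tested. The exception was IDUA, the alpha-L-iduronidase of heparan and dermatan sulfate breakdown, with 4, 7 and 7 counts in CD38 KO and 3, 2 and 6 in WT.

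The CD38 KO clone, made with CRISPR/Cas9 and named E9 in the sample titles (3 libraries), was set against WT MM.1S cells (3 libraries). Both lines had received a lentivirus with green fluorescent protein and click beetle red luciferase, so the WT cells are a transduced line too. Live cells were sorted by their surface staining for CD38, present in WT and absent in the knockout line, and replicates were then taken from the sorted cells, per the labels' protocols. The knockout is a single clone, and nothing in the labels says that replicates came from separate cultures, so the p-values weigh the clone against this WT line by the spread between these libraries, which may be technical.

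Lysosomes break down glycogen, glycosaminoglycans, sphingolipids, glycoproteins, cholesterol esters and proteins with acid hydrolases, many of which are lost in inherited storage diseases. Most soluble hydrolases receive a mannose 6-phosphate tag in the Golgi and are carried to the lysosome by mannose 6-phosphate receptors. The factors TFEB and TFE3 bind E-box sequences of the CLEAR type (coordinated lysosomal expression and regulation) in promoters of many of these genes, and their activity is known to be set largely by their location in the cell. Plasma cells secrete large amounts of antibody and depend on autophagy and lysosomal turnover.

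Libraries held 61515519 to 65709440 counts in CD38 KO and 63606445 to 72335496 in WT. As a check of the labels, the count of CD38 was 51, 80 and 48 in CD38 KO, against 3148, 2678 and 2545 in WT. Plasma cell markers other than CD27 were expressed in both groups, with a summed level of 8526 to 8547 CPM in CD38 KO and 6404 to 6411 CPM in WT over 8 genes. CD27 had 13, 6 and 9 counts in CD38 KO and 6, 2 and 3 in WT. JCHAIN, XBP1, TNFRSF17, PRDM1 and IRF4 were higher in CD38 KO (edgeR adjusted p at most 0.000355) and MZB1 was lower (2.61e-05). SDC1 was at 1235 CPM in CD38 KO and 1204 CPM in WT (edgeR adjusted p = 0.4875). CPM is the count scaled to a common library size with factors from the trimmed mean of M-values (TMM). The 6 B cell markers summed to 19.2 to 20.2 CPM in CD38 KO and 48.8 to 54.5 CPM in WT. Most of that was CR2, a complement receptor, at 19.4 CPM in CD38 KO and 51.1 CPM in WT (edgeR adjusted p = 1.95e-13), while CD79A was at 0.344 CPM in CD38 KO and 0.114 CPM in WT (edgeR adjusted p = 0.0264), and MS4A1 had no more than 3 counts in any library. The 14 markers of other blood and stromal cells summed to 163 to 171 CPM in CD38 KO and 56.0 to 58.4 CPM in WT, most of it from PECAM1. Of the T cell markers among them, CD3E was at 4.83 CPM in CD38 KO and 0.979 CPM in WT (edgeR adjusted p = 9.68e-10), and CD3D had no more than 3 counts in any library, as had PPBP and COL1A2. Mitochondrially encoded genes took 6.83% to 7.30% of counts in CD38 KO and 2.63% to 2.71% in WT. The part of these markers and of the mitochondrial share in the results below was not tested.

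In CD38 KO, falls outnumbered rises among the lysosomal genes. Of the 36 tested, 19 fell, 9 rose and 8 did not pass the threshold, an adjusted p under 0.05 in edgeR's quasi-likelihood test with Benjamini-Hochberg adjustment over all 20120 tested genes. The largest falls were in GNPTAB and TPP1, and the largest rises in GAA and FUCA1. The fallen members were 52.8% of those tested, where 21.6% of all tested genes were called lower, and the risen members were 25%, where 22.8% of all tested genes were called higher. In either direction 77.8% of the members and 44.4% of all tested genes were called. The median log2 fold change (CD38 KO over WT) was -0.17 over the members and 0.00021 over all tested genes.

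Well-expressed genes are called more often than others, so the same shares were read at a mean of at least 30 CPM, a limit chosen after the values were seen. There, 18 of 31 members were lower and 8 higher, where 31.6% of 5965 genes were lower, 33.8% were higher and 65.4% were called in either direction. All CD38 KO libraries were below all WT libraries in CPM for 19 members and above them for 9, as they were for 25.6% and 26.9% of all tested genes (52.5% together). With library size alone as the scaling, the calls over all genes split into 3632 higher and 5570 lower, in place of 4592 and 4342, and those over the members into 8 higher and 20 lower.

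**Figure D1:**
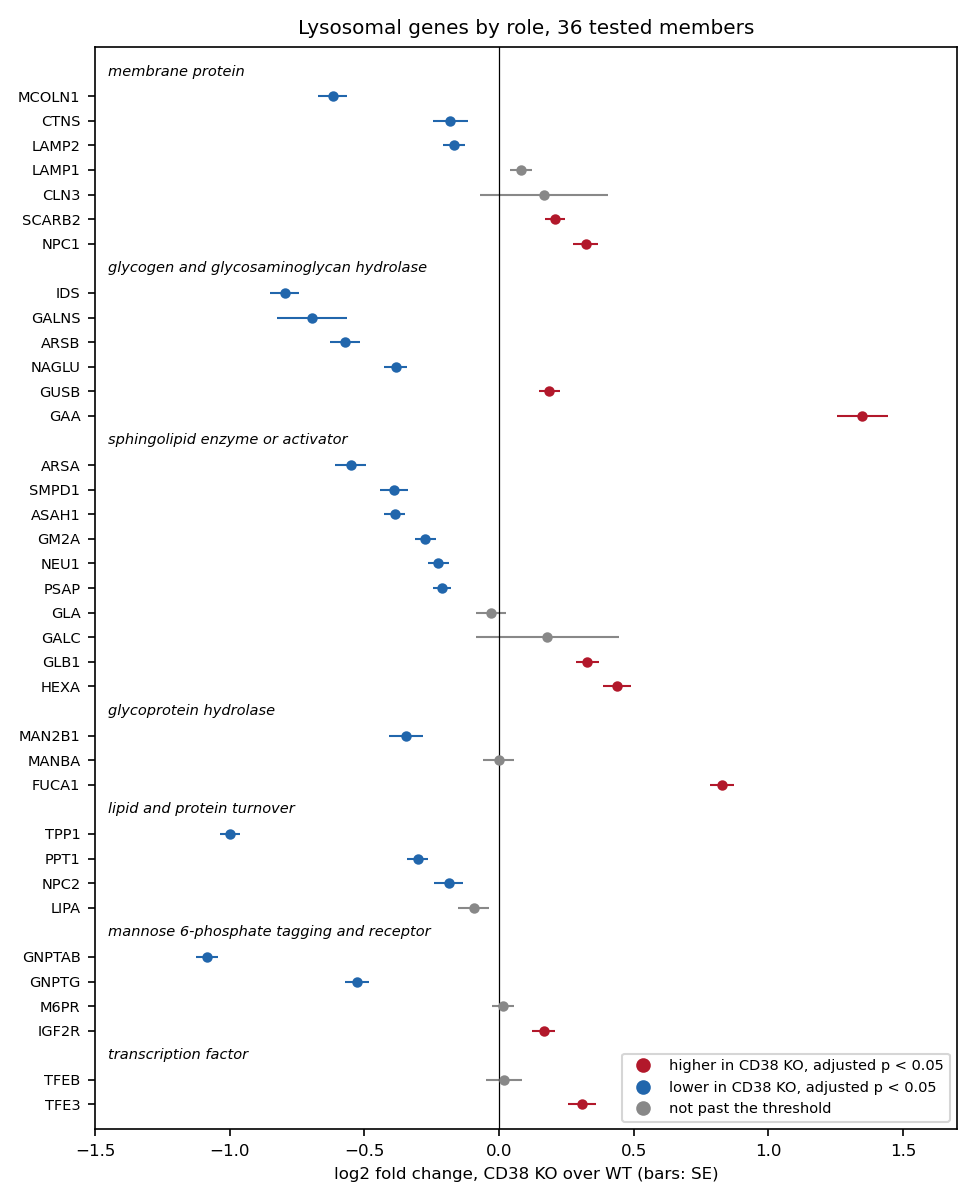
Log2 fold change (CD38 KO over WT) of the 36 tested lysosomal genes, grouped by role, with bars for the standard error (3 libraries a group) and colour for the call at an adjusted p under 0.05. Blue points, lower in CD38 KO, number 19 and red points, higher, number 9, and the points range from -1.08 for GNPTAB to 1.35 for GAA.

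Of the transcription factors, TFE3 rose and TFEB did not pass the threshold. TFEB (chromosome 6) was at 28.5, 27.9 and 27.5 CPM in CD38 KO and at 28.6, 26.9 and 27.4 CPM in WT. Its groups overlapped, with a log2 fold change of 0.02 ± 0.065 (SE), at an edgeR adjusted p of 0.848. TFE3, its relative on the X chromosome, was at 78.9, 78.4 and 83.5 CPM in CD38 KO and at 68.3, 60.6 and 65.6 CPM in WT. Every CD38 KO library was above every WT library, and TFE3 rose with a log2 fold change of 0.31 ± 0.053 (SE), at an edgeR adjusted p of 5.85e-05. The remaining relatives of the family moved in opposite directions. MITF fell to 12.9 ± 0.422 CPM in CD38 KO, against 28.0 ± 0.872 CPM in WT (SD, n = 3 each, edgeR adjusted p = 8.13e-11), and TFEC, named to complete the family after its value was seen, rose to 3.36 ± 0.306 CPM in CD38 KO, against 1.23 ± 0.236 CPM in WT (SD, n = 3 each, edgeR adjusted p = 3.94e-06).

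The RefSeq promoter table (build GRCh38.p14, 250 bases before to 50 after each start site) held 30 of the 37 genes. The E-box core CACGTG was searched in it, with the longer TCACGTGA and with the CLEAR palindrome, in which GT precedes the core and AC follows it. Each reads the same on both strands, and each longer motif contains the shorter ones. The core was present in 10 of the 30 (33.3%) and in 8.77% of 27305 genes with a promoter in the table, TCACGTGA in 7 (23.3%) and in 1.18%, and the palindrome in 5 (16.7%) and in 0.421%. CLEAR sequences were already known from promoters of many of these genes, so the higher shares describe the set and are no test. The genes with the palindrome did not move one way: GALNS, MCOLN1 and GNPTG fell, while GAA and IGF2R rose. Among the 25 without it, 11 fell and 6 rose, where 21.6% of all tested genes were called lower and 22.8% higher. A match describes letters in the window and does not show binding. The stretches below are shown because these 5 genes carry the palindrome and LAMP1 has the most cores of the members. They are on the gene's strand, 5′ to 3′, with capitals marking the core CACGTG, and an adjoining gt before and ac after it complete the palindrome.
GAA, chr17:80101481-80101561, plus strand: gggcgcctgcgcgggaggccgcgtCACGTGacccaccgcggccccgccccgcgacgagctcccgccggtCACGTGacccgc
IGF2R, chr6:159968992-159969081, plus strand: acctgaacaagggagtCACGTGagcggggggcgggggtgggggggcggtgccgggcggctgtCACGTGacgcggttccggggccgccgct
MCOLN1, chr19:7522564-7522623, plus strand: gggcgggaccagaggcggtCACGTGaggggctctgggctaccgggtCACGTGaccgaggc
GNPTG, chr16:1351871-1351930, plus strand: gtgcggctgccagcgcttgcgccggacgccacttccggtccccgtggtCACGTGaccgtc
GALNS, chr16:88857088-88857147, minus strand: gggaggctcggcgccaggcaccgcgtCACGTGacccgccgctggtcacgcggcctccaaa
LAMP1, chr13:113297039-113297108, plus strand: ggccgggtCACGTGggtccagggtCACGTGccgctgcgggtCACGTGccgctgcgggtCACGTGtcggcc

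The GAA stretch held the palindrome at both of its cores, and this gene had the largest rise of the members. In LAMP1 the 4 cores printed are preceded by gt but none is followed by ac, and its whole promoter window held 6 cores. LAMP1 did not pass the threshold. GNPTAB and TPP1, which fell most, had no core in their windows.

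The enzymes that build the mannose 6-phosphate tag fell, whereas the receptor IGF2R rose and the receptor M6PR did not pass the threshold. GNPTAB (ENSG00000111670; chromosome 12, 101745497 to 101830938 in GENCODE 29, build GRCh38) encodes the alpha and beta subunits of GlcNAc-1-phosphotransferase, the enzyme that starts the tag. It was at 124.0, 119.9 and 126.8 CPM in CD38 KO and at 266.5, 250.3 and 269.2 CPM in WT. Every CD38 KO library was below every WT library, at 47.2% of the WT level on average, and the log2 fold change was -1.08 ± 0.043 (SE), at an edgeR adjusted p of 1.51e-14. GNPTG, the gamma subunit of the same enzyme, was at 85.6, 88.5 and 84.9 CPM in CD38 KO and at 129.0, 121.0 and 123.6 CPM in WT. The groups lay apart, with a log2 fold change of -0.53 ± 0.044 (SE), at an edgeR adjusted p of 2.87e-09. Of the exon bases of GNPTG, 22.2% overlap UNKL on the opposite strand, and the strand setting of the counting is not given in the sources used here. NAGPA, which uncovers the tag in the next step and came from a list of other lysosomal hydrolases, was at 11.7, 12.2 and 12.6 CPM in CD38 KO and at 30.7, 27.5 and 29.9 CPM in WT (log2 fold change -1.27, edgeR adjusted p = 1.73e-11).

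M6PR, the small cation-dependent receptor, was at 224.1, 240.3 and 220.6 CPM in CD38 KO and at 223.6, 221.9 and 232.9 CPM in WT. The groups overlapped (log2 fold change 0.01 ± 0.042, the error being the SE, and edgeR adjusted p = 0.822), and 29.3% of its exon bases overlap PHC1 on the opposite strand. IGF2R, the large cation-independent receptor that also binds IGF2, was at 410.9, 399.3 and 388.7 CPM in CD38 KO and at 374.6, 336.2 and 357.9 CPM in WT. It rose with a log2 fold change of 0.17 ± 0.042 (SE), at an edgeR adjusted p of 0.00280, with no overlap between groups. That call was lost with library size alone, where the log2 fold change was 0.083 and the edgeR adjusted p was 0.0911.

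Among the 7 membrane proteins, 3 fell, 2 rose and 2 did not pass the threshold, with a median log2 fold change of 0.08. The share called, 71.4%, was near the 65.4% of all genes at a mean of at least 30 CPM. Of all tested genes 44.4% were called. MCOLN1, the calcium channel TRPML1 through which lysosomes release calcium, had the largest change of the 7. It was at 47.3, 52.3 and 50.4 CPM in CD38 KO and at 78.9, 74.5 and 76.9 CPM in WT, with no overlap (log2 fold change -0.62 ± 0.053, the error being the SE, and edgeR adjusted p = 3.74e-09). LAMP1 and LAMP2 are the abundant glycoproteins that line the lysosomal membrane. LAMP1 was at 242.9, 265.3 and 245.6 CPM in CD38 KO and at 239.1, 230.4 and 243.0 CPM in WT, so the lowest CD38 KO library was below the highest WT library. LAMP2 was at 337.8, 309.5 and 333.8 CPM in CD38 KO and at 360.5, 365.0 and 376.2 CPM in WT, and every CD38 KO library was below every WT library.

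The difference of LAMP1 was 0.08 on the log2 scale (edgeR adjusted p = 0.130), and with library size alone it was -0.0021. LAMP2 fell with a log2 fold change of -0.17 (edgeR adjusted p = 0.00193). SCARB2, a membrane receptor that sorts cargo to the lysosome, rose with a log2 fold change of 0.21 (edgeR adjusted p = 0.000125). NPC1, the cholesterol exporter of the membrane, rose to 85.8 ± 1.06 CPM in CD38 KO, against 68.7 ± 1.32 CPM in WT (SD, n = 3 each, edgeR adjusted p = 6.43e-06). NPC2, the soluble protein that hands cholesterol to NPC1, fell with a log2 fold change of -0.19 (edgeR adjusted p = 0.00792). This call was lost without CD38 KO replicate 1 (log2 fold change -0.12, edgeR adjusted p = 0.0660). The cystine exporter CTNS fell with a log2 fold change of -0.18 (edgeR adjusted p = 0.0269). The CTNS call was lost without CD38 KO replicate 3 (edgeR adjusted p = 0.142), WT replicate 1 (0.0839) or WT replicate 3 (0.141). CLN3, a membrane protein mutated in juvenile Batten disease, had 112, 82 and 72 counts in CD38 KO and 97, 76 and 90 in WT, and 25.2% of its exon bases overlap another gene on the same strand.

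**Figure D2:**
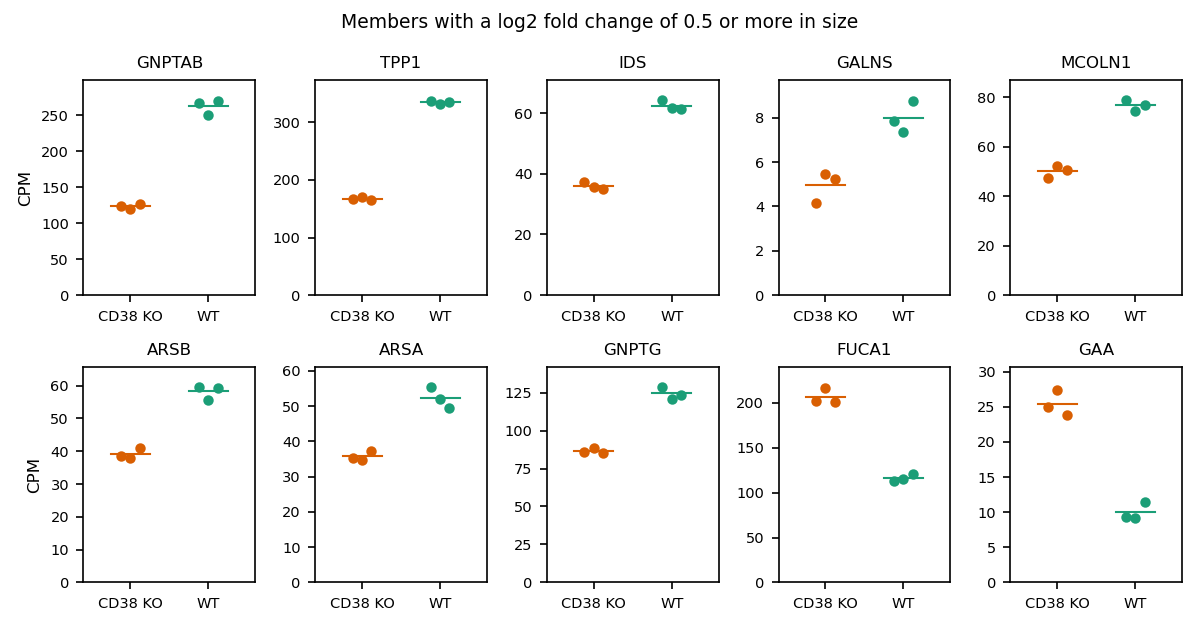
CPM in each library (points) and group means (lines) of the 10 members with an adjusted p under 0.05 whose log2 fold change was 0.5 or more in size, CD38 KO left of WT, on axes that start at 0. The CD38 KO libraries lie below all WT libraries in 8 genes, and above them in FUCA1 and GAA.

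Past a log2 fold change of 0.5 in size, 8 members were lower and 2 were higher, where 11.2% of all tested genes were lower and 12.2% were higher by this rule. The 7 enzymes of glycogen and glycosaminoglycan breakdown held both the largest rise and several of the largest falls. Of the 6 tested, 4 fell and 2 rose. Of all tested genes 21.6% were called lower and 22.8% higher, and at a mean of at least 30 CPM 31.6% and 33.8%. GAA (ENSG00000171298; chromosome 17, 80101556 to 80119879), the acid alpha-glucosidase that degrades glycogen and is deficient in Pompe disease, was at 24.98, 27.4 and 23.8 CPM in CD38 KO and at 9.34, 9.13 and 11.5 CPM in WT. All CD38 KO libraries were above all WT libraries, 2.55-fold on average, with a log2 fold change of 1.35 ± 0.095 (SE), at an edgeR adjusted p of 2.27e-10. GUSB, the beta-glucuronidase that trims several glycosaminoglycans, rose with a log2 fold change of 0.19 (edgeR adjusted p = 0.000419), and its reads may be shared with its several pseudogenes.

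The enzymes that fell act in glycosaminoglycan breakdown, as does GUSB, which rose. IDS, the iduronate sulfatase deficient in Hunter syndrome, was at 37.2, 35.7 and 34.9 CPM in CD38 KO and at 64.2, 61.7 and 61.2 CPM in WT. Its log2 fold change was -0.80 ± 0.054 (SE), at an edgeR adjusted p of 9.74e-11, with no overlap, and 16.5% of its exon bases are shared with another gene on the same strand. GALNS, the sulfatase of keratan sulfate and chondroitin 6-sulfate, was low in all libraries, at 4.16, 5.44 and 5.25 CPM in CD38 KO and at 7.88, 7.38 and 8.75 CPM in WT. The groups lay apart (log2 fold change -0.69 ± 0.13, the error being the SE, and edgeR adjusted p = 0.000149). ARSB, which removes sulfate from dermatan and chondroitin sulfate, was at 38.7, 37.9 and 40.9 CPM in CD38 KO and at 59.6, 55.6 and 59.4 CPM in WT. Its log2 fold change was -0.57 ± 0.056 (SE), at an edgeR adjusted p of 2.74e-08. NAGLU, the alpha-N-acetylglucosaminidase of heparan sulfate breakdown, fell to 116 ± 1.86 CPM in CD38 KO, against 152 ± 5.29 CPM in WT (SD, n = 3 each, edgeR adjusted p = 1.94e-07).

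Of the 10 sphingolipid enzymes and activators, 6 fell, 2 rose and 2 did not pass the threshold, with a median log2 fold change of -0.22. Those called lower were 60%, where 21.6% of all tested genes and 31.6% of those at a mean of at least 30 CPM were lower. Those called higher were 20%, where these shares were 22.8% and 33.8%. ARSA, the arylsulfatase that removes sulfate from sulfatide, was at 35.2, 34.8 and 37.2 CPM in CD38 KO and at 55.5, 52.0 and 49.6 CPM in WT (log2 fold change -0.55 ± 0.059, the error being the SE, and edgeR adjusted p = 1.22e-07). The sphingomyelinase SMPD1 and the acid ceramidase ASAH1, which make and then cleave ceramide, fell with log2 fold changes of -0.39 and -0.39 (edgeR adjusted p = 1.60e-06 and 3.61e-08). PSAP, the precursor of the saposin activators, fell to 4442 ± 145 CPM in CD38 KO, against 5145 ± 43.5 CPM in WT (SD, n = 3 each, edgeR adjusted p = 1.57e-05). The activator GM2A and the sialidase NEU1 fell with log2 fold changes of -0.27 and -0.23 (edgeR adjusted p = 4.56e-06 and 6.50e-05).

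HEXA and GLB1 went the other way. HEXA, the alpha subunit of hexosaminidase A that acts on GM2 ganglioside together with GM2A, rose to 64.9 ± 2.95 CPM in CD38 KO, against 47.9 ± 0.345 CPM in WT (SD, n = 3 each, edgeR adjusted p = 5.42e-07). GLB1, the beta-galactosidase, rose with a log2 fold change of 0.33 (edgeR adjusted p = 1.12e-06). It forms a complex with NEU1 and the protective protein CTSA, and CTSA fell with a log2 fold change of -0.36 (edgeR adjusted p = 1.43e-07). CTSA was named as a partner after its values were seen. The alpha-galactosidase GLA was at 48.1 ± 0.998 CPM in CD38 KO and 49.1 ± 2.05 CPM in WT (SD, n = 3 each), and the galactosylceramidase GALC was near 1 CPM, with 126, 90 and 55 counts in CD38 KO and 92, 86 and 87 in WT. Neither passed the threshold (edgeR adjusted p = 0.693 and 0.628).

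The 3 glycosidases of glycoprotein breakdown each did something different. FUCA1, the alpha-L-fucosidase, was at 201.8, 216.7 and 201.3 CPM in CD38 KO and at 113.1, 115.5 and 120.8 CPM in WT. All CD38 KO libraries were above all WT libraries, with a log2 fold change of 0.83 ± 0.044 (SE), at an edgeR adjusted p of 2.19e-12. The alpha-mannosidase MAN2B1 fell with a log2 fold change of -0.35 (edgeR adjusted p = 0.000151). The beta-mannosidase MANBA was at 41.8 ± 1.18 CPM in CD38 KO and 41.8 ± 1.79 CPM in WT (SD, n = 3 each, edgeR adjusted p = 0.994).

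Of the 4 remaining enzymes and carriers of lipid and protein turnover, NPC2 among them, 3 fell. Among all tested genes 21.6% were called lower, and 31.6% of those at a mean of at least 30 CPM. TPP1 (ENSG00000166340; chromosome 11, 6612763 to 6619485), the tripeptidyl peptidase deficient in late-infantile Batten disease, was at 167.3, 170.7 and 164.2 CPM in CD38 KO and at 336.9, 330.8 and 335.3 CPM in WT. Its level in CD38 KO was 50.1% of that in WT, with a log2 fold change of -0.998 ± 0.038 (SE), at an edgeR adjusted p of 9.64e-15 and no overlap. PPT1, the palmitoyl-protein thioesterase of infantile Batten disease, fell to 291 ± 9.55 CPM in CD38 KO, against 358 ± 5.64 CPM in WT (SD, n = 3 each, edgeR adjusted p = 1.34e-06), and 23.4% of its exon bases overlap CAP1 on the opposite strand. LIPA, the acid lipase of cholesterol esters, was at 71.5, 73.3 and 71.3 CPM in CD38 KO and at 69.1, 82.6 and 79.1 CPM in WT, so its groups overlapped (edgeR adjusted p = 0.202). Without WT replicate 1, the lowest of all, LIPA passed the threshold (log2 fold change -0.17, edgeR adjusted p = 0.0139), and with library size alone it did so too (-0.18, 0.0196).

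The members together took 0.877%, 0.908% and 0.878% of all raw counts in the CD38 KO libraries and 1.06%, 1.06% and 1.05% in the WT libraries. PSAP held 48.2% to 49.1% of these counts in CD38 KO and 49.8% to 50.3% in WT. These shares carry no TMM factors, and the raw totals include the mitochondrially encoded genes. In CPM with TMM factors the tested members summed to 9017 to 9382 in CD38 KO and 10144 to 10340 in WT. Per kilobase of exon (GENCODE 29, all exons of a gene merged), PSAP was the most abundant member, at 1372 CPM per kb in CD38 KO and 1589 CPM per kb in WT. GUSB was the next, at 131.1 CPM per kb in CD38 KO and 115 CPM per kb in WT, and the median member was at 17.98 CPM per kb in CD38 KO and 19.97 CPM per kb in WT. On this scale FUCA1 was the third most abundant member in CD38 KO and the sixth in WT. In bulk RNA, fewer cells with a transcript and less of it per cell cannot be told apart.

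Other genes of the lysosome were read from 5 lists, chosen with earlier results of these data known. In the list of other hydrolases and activators 10 of 25 fell and 10 rose, and in that of other membrane proteins 12 of 27 fell and 5 rose. Of 18 subunits of the V-ATPase, the proton pump that acidifies the lysosome, 7 fell and 2 rose. Of 23 genes of sorting to the lysosome 10 fell and 3 rose, and of 23 regulators of mTORC1 and TFEB at the lysosome 9 fell and 5 rose. The median log2 fold changes of these lists were -0.01, -0.11, -0.11, -0.08 and -0.07. Over all tested genes 21.6% were lower and 22.8% were higher, and at a mean of at least 30 CPM 31.6% were lower and 33.8% were higher. The lists were not limited to genes at that level. In them 40%, 44.4%, 38.9%, 43.5% and 39.1% of the tested genes were lower, in the same order.

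Named by the smallest adjusted p in each list, the hydrolase DNASE2, which degrades DNA in the lysosome, rose with a log2 fold change of 0.62 (edgeR adjusted p = 2.36e-11). Of the membrane proteins, HGSNAT, the acetyltransferase of heparan sulfate breakdown, and the tetraspanin CD63 fell with log2 fold changes of -0.88 and -0.51. The two-pore channel TPCN2 rose to 31.0 ± 0.566 CPM in CD38 KO, against 18.6 ± 1.10 CPM in WT (SD, n = 3 each, edgeR adjusted p = 2.37e-08), and PLD3, a lysosomal exonuclease, rose with a log2 fold change of 0.52. TPCN2 forms a calcium channel opened by NAADP, a messenger that CD38 can make. TPCN1, the other two-pore channel on that list, was more abundant and went the other way. It fell to 135 ± 8.83 CPM in CD38 KO, against 164 ± 10.9 CPM in WT (SD, n = 3 each, edgeR adjusted p = 0.000249). A link of either change to NAADP was not tested.

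The V-ATPase subunit ATP6V0A1 rose with a log2 fold change of 0.61 (edgeR adjusted p = 2.53e-11), while ATP6V1D, ATP6V0E1 and ATP6V1B2 fell with -0.44, -0.30 and -0.27. TCIRG1, a paralog of ATP6V0A1, was more abundant in both groups and fell with -0.17 (edgeR adjusted p = 0.00151). The paralog ATP6V0A2 did not pass the threshold (edgeR adjusted p = 0.121). VPS18, VPS41 and VPS39, subunits of the HOPS complex that tethers late endosomes to lysosomes, fell with log2 fold changes of -0.95, -0.83 and -0.67. The HOPS subunits VPS11 and VPS16 on the same list fell less, with -0.33 and -0.23. VPS33A did not pass the threshold (edgeR adjusted p = 0.0768). CLN6, an endoplasmic reticulum protein that helps export hydrolases, rose with a log2 fold change of 0.47. Of the regulators, FNIP2, which acts with folliculin on the RAG GTPases, rose to 263 ± 11.2 CPM in CD38 KO, against 115 ± 8.77 CPM in WT (SD, n = 3 each, edgeR adjusted p = 3.11e-13). The calcineurin subunit PPP3CA, part of the phosphatase that acts on TFEB, fell with a log2 fold change of -0.95, and LAMTOR1, the anchor of the Ragulator complex, with -0.45. The calcineurin subunits PPP3CB and PPP3R1 on the same list did not pass the threshold (edgeR adjusted p = 0.763 and 0.832). The other Ragulator subunits on it differed: LAMTOR2 fell with -0.14 and LAMTOR4 rose with 0.19. LAMTOR3 and LAMTOR5 did not pass the threshold (edgeR adjusted p = 0.0677 and 0.840).

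**Figure D3:**
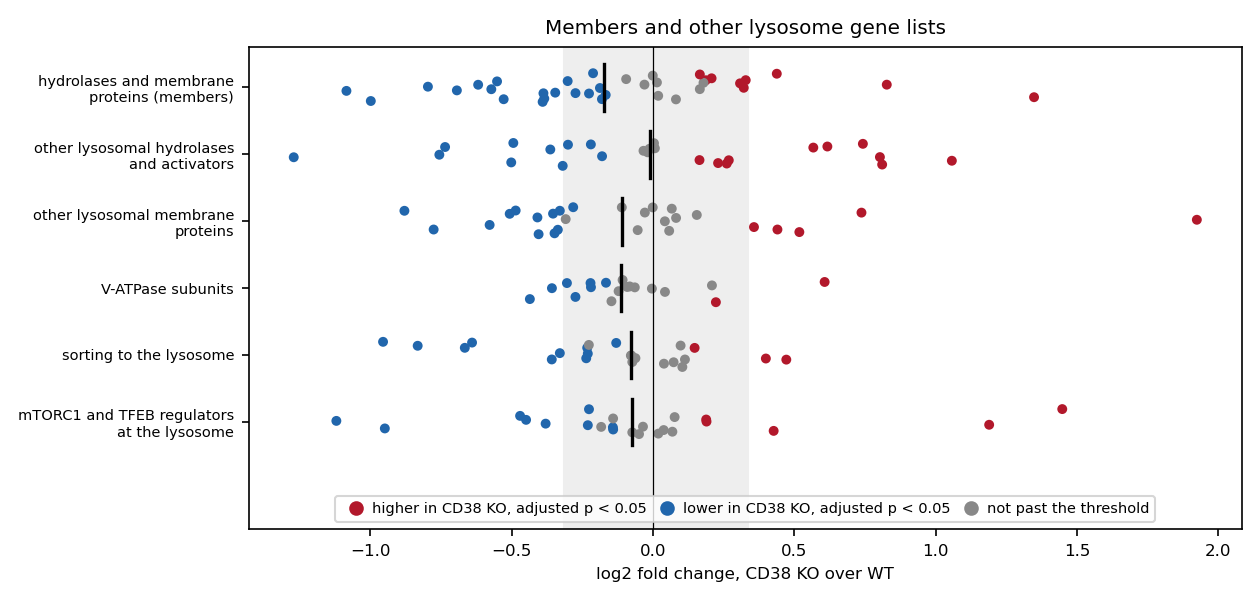
Log2 fold change (CD38 KO over WT) of the tested genes of the lysosomal hydrolase and membrane protein set and of 5 other lysosome lists, 1 point a gene, with colour for the call at an adjusted p under 0.05 and a black bar at each list's median. The thin line and the grey band mark the median and the middle quartiles (-0.31 to 0.33) of all tested genes, and every list has points on both sides of 0.

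The tested members lie on 19 chromosomes, and members of 1 chromosome could differ in direction. LAMP1 is the only member on chromosome 13, whose 391 tested genes had a median log2 fold change of 0.39. Its own difference of 0.08 was -0.31 relative to that median. GNPTAB and M6PR share chromosome 12 (median -0.11 over 1079 genes), and the first fell with -1.08 while the second was at 0.01. On the X chromosome (median -0.08 over 729 genes) IDS and LAMP2 fell, TFE3 rose and GLA did not pass the threshold.

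**Figure D4:**
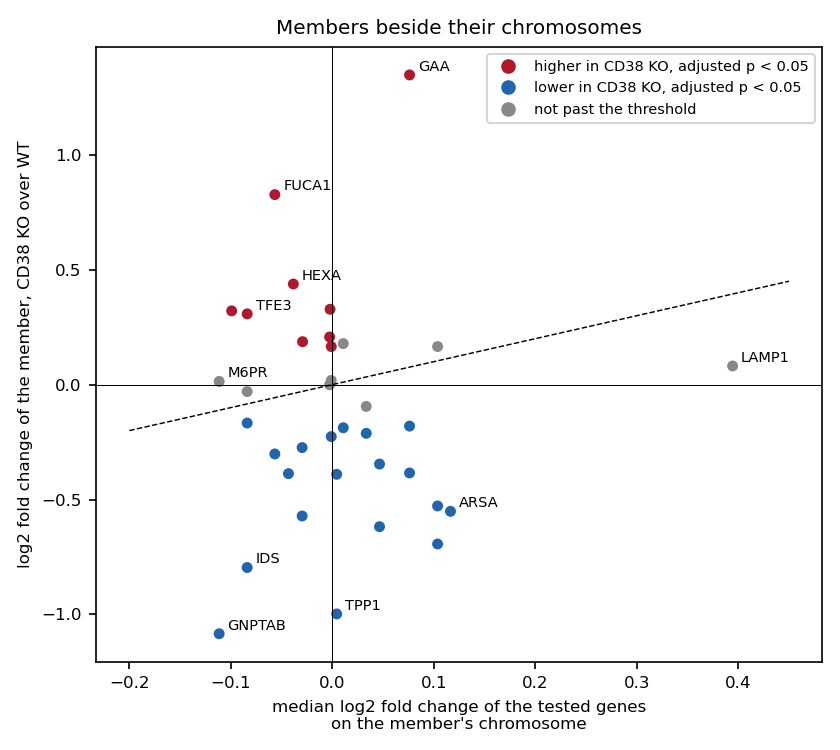
Log2 fold change (CD38 KO over WT) of each tested member on the vertical axis against the median log2 fold change of the tested genes of its chromosome on the horizontal axis, with colour for the call and a dashed line where both are equal. LAMP1 stands alone at a chromosome median of 0.39, and the other members have chromosome medians between -0.11 and 0.12.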

How the data were processed

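The authors deposited raw read counts per gene in 1 table with 1 column per library, per the file headers. Libraries were made with a SMARTer low-input kit from 10 ng of total RNA, per the labels' protocols. STAR 2.7.9a, Partek and DESeq2 are named, without roles, in the submitters' processing notes, and the sources used here give no annotation or strand setting. Of 60871 lines, 200 repeated an identifier with the same counts and were dropped. CD38 KO was fitted against WT with edgeR 4.0.16 (R 4.3.3): TMM, filterByExpr, robust quasi-likelihood test, no covariate, Benjamini-Hochberg over 20120 genes. The procedure was tested on simulated data. CPM used the counts of tested genes and TMM factors. Positions and exon lengths came from GENCODE 29 by Ensembl identifier, which matched 98.6% of tested genes. The limit set by a count of 0 was taken as 3 counts, or 0.0405 to 0.0504 CPM, for counting error only.

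The members and lists were chosen with earlier results of these data known. Full values are given for members past the threshold with a log2 fold change of 0.5 or more in size, for TFEB, TFE3, MCOLN1, LAMP1, LAMP2, M6PR, IGF2R and GNPTAB, and from each other list up to 4 genes of smallest adjusted p are named, though some are not reported here. Any other gene outside the members was named after its values were seen. As 14 alternatives, the fit was repeated with RLE factors, with upper-quartile factors, with library size alone, with no filter, 1 CPM in 3 libraries, DESeq2 1.42.0, limma-voom (limma 3.58.1), the replicate number as a block, and each library left out in turn. No 2 libraries were alike within sampling noise (chi-square per degree of freedom at least 5.96).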

Additional observations from a re-analysis of the deposited data

How the results depend on the processing

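Over the 14 alternatives the members called lower numbered 18 to 20 and those called higher 8 or 9, while all called genes numbered 7767 to 9202. The members' median log2 fold change ranged from -0.26 with library size alone to -0.15 with single libraries left out, and CD38 kept its call in all. Library size alone moved all genes: their median was then -0.083, and the members' median less that of all genes was -0.17, as with TMM. Signs changed only among the 8 members that were not called. With library size alone the log2 fold changes were -0.0021 for LAMP1, -0.069 for M6PR and -0.065 for TFEB. With upper-quartile factors M6PR was at -0.00059 and with no filter at -0.0022, and with 1 CPM in 3 libraries MANBA was at 0.0060. With each library left out in turn the ranges that crossed 0 were -0.0043 to 0.30 for CLN3, -0.057 to 4.6e-05 for GLA, -0.10 to 0.44 for GALC, -0.026 to 0.032 for MANBA, -0.024 to 0.047 for M6PR and -0.0029 to 0.040 for TFEB. The cause of the shifts under settings other than library size alone was not tested. The replicate numbers did not pair the samples (correlations of same-numbered deviations of 0.041, 0.016 and -0.021), and the replicate block gave 8918 called genes, with 19 members lower and 9 higher. IDUA, GALC and CLN3 had the fewest counts of the members.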

Other observations

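The sulfatases form a group that cuts across the substrates above, picked after the values were seen. All 4 sulfatases among the members, IDS, GALNS, ARSB and ARSA, fell, with log2 fold changes of -0.80 to -0.55. Among all tested genes 21.6% were called lower. SUMF1, which activates sulfatases by converting a cysteine of their active site, fell to 23.2 ± 0.852 CPM in CD38 KO, against 39.2 ± 0.922 CPM in WT (SD, n = 3 each, edgeR adjusted p = 3.13e-09). Sulfatases of the other lists did not all move this way. SGSH, the sulfamidase of heparan sulfate, rose to 244 ± 6.13 CPM in CD38 KO, against 164 ± 7.19 CPM in WT (SD, n = 3 each, edgeR adjusted p = 4.50e-10). ARSG rose with a log2 fold change of 0.27 (edgeR adjusted p = 0.00801, and 0.0589 with library size alone), and ARSK did not pass the threshold (edgeR adjusted p = 0.981).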
